A study of Mus musculus with 8 samples.

Results

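Hsf4, Dnase2b, Bnip3 and Bnip3l were taken as the 4 genes of fiber organelle loss, out of 21000 protein-coding genes with curated RefSeq transcripts. For each gene, every peak was collected that overlapped the RefSeq GRCm38 gene body plus 50 kb on each side. This gave 222 of the 345333 peaks in the lists of open chromatin, and these peaks merged into 101 of 185271 regions. The rule that collected the peaks used no measured value. The study micro-dissected the lens of CD1 mice into its epithelium and its fibers at embryonic day E14.5 (called embryonic below) and at postnatal day P0.5 (called newborn), and measured chromatin accessibility by ATAC-seq, in which a transposase cuts open DNA and tags it for sequencing. No treatment or engineered allele is named for any of the 4 groups. Several lenses were pooled for each of the 2 libraries of a group, 8 libraries in all, and the peak list of a group was called on both libraries pooled. Each value below is therefore 1 value per group, with no spread between replicates and no test between groups.

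During their terminal differentiation, lens fiber cells destroy their nuclei, mitochondria and other organelles, which clears the light path. Hsf4 is the lens heat shock transcription factor, a cataract gene whose targets include small heat shock proteins and the fiber nuclease gene Dnase2b. Dnase2b encodes an acid nuclease that degrades the DNA of fiber nuclei, and Bnip3 and Bnip3l (also called Nix) encode receptors on the outer mitochondrial membrane that recruit the autophagy machinery.

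The lists differed in length, with 100003 peaks in embryonic epithelium, 123743 in embryonic fibers, 58592 in newborn epithelium and 62995 in newborn fibers. They hold no read counts, and the depth behind each list was not worked out. A peak was therefore placed by the rank of its fold enrichment (the reads at its summit over the background) within its own list, given as a percent of the list, where a low percent is a strong peak. At the 4 genes each fold value of a list went with 1 p value, as with 1 background for the whole list and no local correction. Each list held only 102 to 506 different fold values. The most common one was shared by 22.1% of the newborn fiber peaks and by 9.57% to 11% of the other lists, and tied peaks carry the same percent. At the 4 genes the lowest neighboring fold values were 2.67 and 2.97 in embryonic fibers and 3.24 and 3.71 in newborn fibers. The step between values was thus wider in newborn fibers, as with a lower background depth, and the part of depth in the results was not tested. As a check of the labels, the best promoter peaks (within 2 kb of a curated transcription start site) of 6 fiber genes, among them Cryga, Crybb1 and Mip, had a median place of 1.71% of the list in embryonic fibers and 11.2% in embryonic epithelium. At the newborn stage the medians were 7.06% in fibers and 20.5% over the 5 of these genes with a peak in epithelium, where Cryga had none. The 4 epithelial genes Foxe3, Pax6, Pdgfra and Cdh1 did not set the tissues apart, with medians of 5.55% in epithelium and 5.87% in fibers in the embryo and 9.39% and 9.81% in the newborn. Of 6 markers of leukocytes, endothelium, retina, pigment cells and mesenchyme, 3, 4, 2 and 1 had a promoter peak in embryonic epithelium, embryonic fibers, newborn epithelium and newborn fibers. They stood between 16.2% and 80.6% of their lists, Ptprc and Tyr had none, and endothelial Cdh5 had one in all 4 lists, between 16.2% and 33.9%. The part of such cells in the results was not tested, and fewer open cells cannot be told apart from less open chromatin in each cell.

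The 4 genes together held 56 peaks in embryonic epithelium, 81 in embryonic fibers, 35 in newborn epithelium and 50 in newborn fibers. These peaks covered 29.5, 50.8, 14.3 and 15.4 kb. This order followed the lengths of the lists. When the 58592 strongest peaks were taken from each list, the genes held 31 peaks in embryonic epithelium, 42 in embryonic fibers, 35 in newborn epithelium and 47 in newborn fibers, so that fibers held more than epithelium at each stage and the order of the stages turned. The windows differed in what else they held. The Hsf4 window of 106432 bp contains 11 other curated genes, that of Dnase2b (147328 bp) contains 4, that of Bnip3 (118671 bp) contains 3 and that of Bnip3l (123640 bp) contains 1, Ppp2r2a. Of the 45 merged regions near Hsf4, 22 lay at the promoter of another gene, as against 5 of 14 near Dnase2b, 2 of 11 near Bnip3 and none of 31 near Bnip3l.

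**Figure D1:**
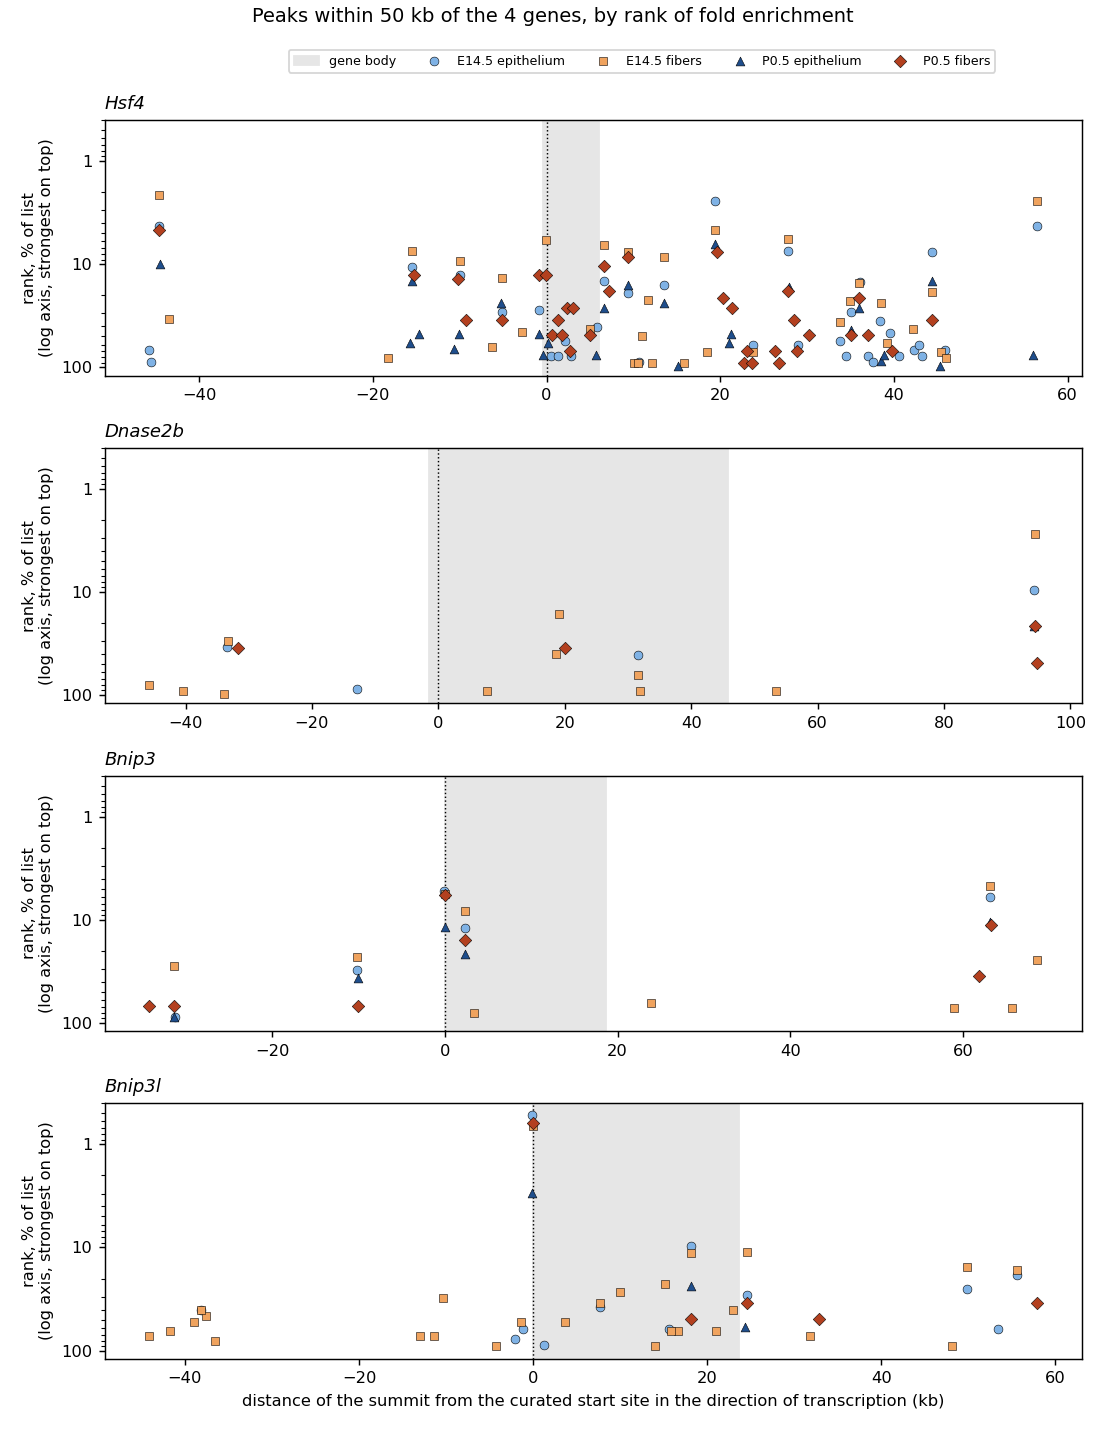
Every peak within 50 kb of the 4 genes, placed on the x axis by the distance of its summit from the curated start site in the direction of transcription (kb) and on the y axis by its rank as a percent of its own list (log axis, strongest on top), with 1 marker shape and color for each list and the gene body shaded. Bnip3l and Bnip3 have peaks of all 4 lists at the start site, Hsf4 has a row of newborn fiber peaks inside its gene body, and Dnase2b has no peak at the start site.

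Hsf4, the transcription factor of the group, differed most between fibers and epithelium in the share of its own body under peaks. It lies on the forward strand at chr8:105269414-105275845, with its curated start site at position 105269801. In embryonic fibers a single peak of 4982 bp, chr8:105268052-105273033, ran from upstream of the start site into the gene, with its summit 25 bp before the start site. Over the same stretch, embryonic epithelium had 5 separate peaks that covered 2537 bp, newborn epithelium had 3 that covered 902 bp and newborn fibers had 8 that covered 2194 bp. The wide embryonic fiber peak was the widest peak in any list at the 4 genes.

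The best promoter peak of Hsf4 stood at 27.7% of the list in embryonic epithelium, 5.76% in embryonic fibers, 47.1% in newborn epithelium and 12.6% in newborn fibers. The fold enrichments were 9.20, 40.3, 5.94 and 7.42, which compare only within a list. At both stages the fiber peak was placed higher than the epithelial one, with fiber minus epithelium differences of -21.9 points of the list in the embryo and -34.5 points in the newborn. With promoters of 5 kb newborn epithelium stood at 23.6% and newborn fibers still at 12.6%. Among all genes with a promoter peak in the same list, 14.8% had a weaker best peak than Hsf4 in embryonic epithelium, 52.2% in embryonic fibers, 7.80% in newborn epithelium and 41.1% in newborn fibers. Hsf4 thus stood among the weaker promoters in epithelium and near the middle in fibers. With equal numbers of peaks taken from each list the places were 47.3%, 12.2%, 47.1% and 13.6%, and with peaks at a q value under 0.001 newborn fibers stood at 25.8%.

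The position of the summit differed too. In embryonic epithelium and newborn epithelium the strongest promoter peak had its summit at -922 and -921 bp from the start site, in the last coding exon of the neighbor gene Fbxl8. In newborn fibers a peak with its summit at -916 bp tied with a peak whose summit was at -0.020 kb, both with a fold enrichment of 7.42. Newborn epithelium also had a peak 0.123 kb downstream of the start site, at 58.5% of the list. The bases around the upstream summit are shown first below because 3 lists had a promoter summit there, and the bases at +5.0 kb because they are the only region at the 4 genes that both fiber lists and neither epithelium list called. Both are on the forward strand of GRCm38 (mm10), the first at chr8:105268780-105268979 and the second at chr8:105274745-105274944, and no searched motif, as described further below, lies in either.
Hsf4 -0.92 kb: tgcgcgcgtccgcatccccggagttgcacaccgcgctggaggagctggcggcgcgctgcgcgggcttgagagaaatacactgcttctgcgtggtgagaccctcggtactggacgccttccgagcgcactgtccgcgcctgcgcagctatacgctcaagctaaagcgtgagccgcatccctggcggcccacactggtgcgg
Hsf4 +5.0 kb: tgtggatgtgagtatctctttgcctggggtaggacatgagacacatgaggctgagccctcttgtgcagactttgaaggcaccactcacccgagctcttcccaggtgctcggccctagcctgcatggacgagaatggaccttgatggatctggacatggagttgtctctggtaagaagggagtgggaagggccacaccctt

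The region at +5.0 kb, chr8:105274611-105275122, covers introns and coding exons near the 3′ end of Hsf4. It stood at 42.8% of the list in embryonic fibers (fold enrichment 5.34) and at 48.9% in newborn fibers (4.17). Its summit lies 1602 bp from the start site of Nol3, the next gene, so it counts as a promoter region of Nol3 as well. With peaks at a q value under 0.001 alone, the newborn fiber peak was lost. It was 1 of 101 regions with this pattern (0.990%), while 2.43% of all merged regions had it, and 0 of the 101 regions were called in both epithelium lists alone, as were 2.28% of all merged regions.

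**Figure D2:**
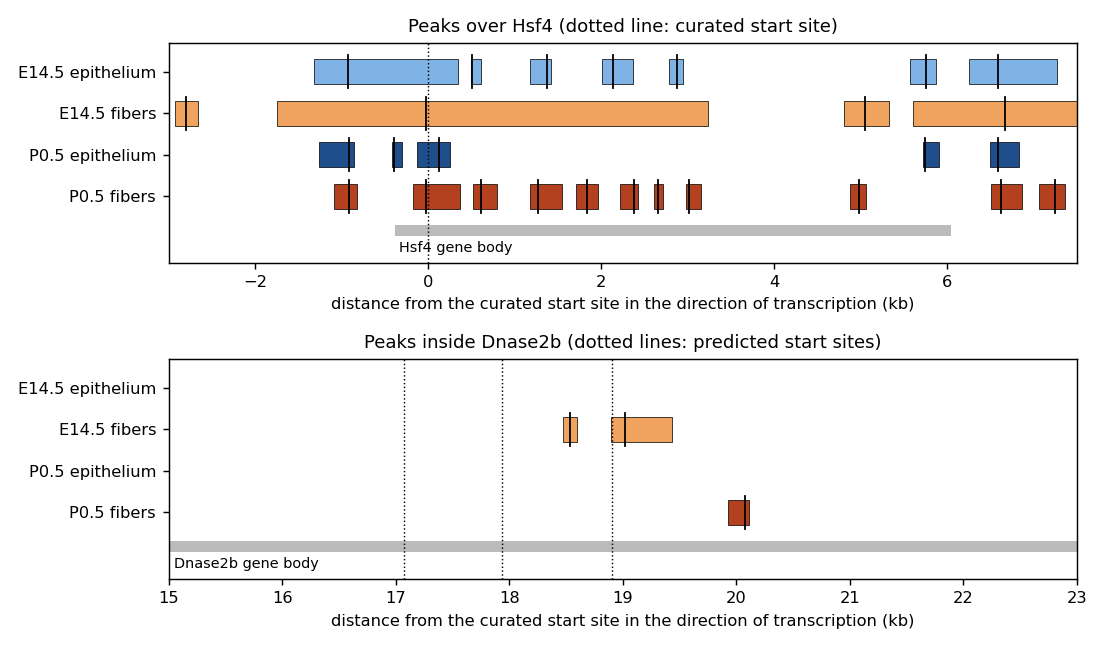
Extents of the peaks (boxes) and their summits (black ticks) in each of the 4 lists over Hsf4 (top) and inside Dnase2b (bottom), against the distance from the curated start site in the direction of transcription (kb), with dotted lines at the curated start site of Hsf4 and at predicted start sites of Dnase2b. One embryonic fiber box spans the promoter and much of Hsf4 where newborn fibers have 8 boxes and the epithelia have 5 and 3, and only fiber lists have boxes inside this stretch of Dnase2b.

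Peaks covered 29.6% of the Hsf4 gene body in embryonic epithelium, 71.0% in embryonic fibers, 10.3% in newborn epithelium and 33.0% in newborn fibers. The median over 19631 genes was 2.71%, 4.23%, 1.51% and 1.38% in the same order. Fibers covered more of Hsf4 than epithelium by 41.4 points in the embryo, a larger difference than in 99.6% of genes, and by 22.7 points in the newborn, larger than in 99.4%. Genes were not matched for length, and a wide peak fills a large share of a body of 6432 bp. Without the first 2 kb of the gene body the shares were 18.6%, 57.9%, 4.31% and 20.8%, again with more in fibers at both stages. With equal numbers of peaks from each list, embryonic epithelium covered 16.0%, and at a q value under 0.001 newborn fibers covered 20.1%.

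The strongest peaks of the Hsf4 window lay at other genes. In both epithelium lists the top peak was at the promoter of 4931428F04Rik, 19.4 kb downstream, at 2.41% of the list in embryonic and 6.40% in newborn epithelium. In both fiber lists it was at the promoter of D230025D16Rik, at -44.6 kb, at 2.14% in embryonic and 4.64% in newborn fibers. The promoter of E2f4, a cell cycle transcription factor, stood at 7.35% in embryonic epithelium and 5.64% in embryonic fibers. In the newborn it stood at 16.5% in epithelium and 18.2% in fibers, weaker than the medians of all genes with a promoter peak (12.8% and 10.3%). All promoters named here were called in all 4 lists, as were 14 of the 45 regions of the window.

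Dnase2b, the nuclease gene, had no peak within 2 kb of its curated start site in any list. It lies on the reverse strand at chr3:146569733-146617060 with the curated start site at 146615598. In the series as a whole, 70.3% of genes had a promoter peak in embryonic epithelium, 71.2% in embryonic fibers, 67.0% in newborn epithelium and 64.6% in newborn fibers, and the other 3 genes of the group had one in each list. The Dnase2b window held 4 peaks in embryonic epithelium, 11 in embryonic fibers, 1 in newborn epithelium and 4 in newborn fibers. The strongest in every list lay at the promoter of Rpf1, a ribosome biogenesis gene at the far end of the window, at 9.59%, 2.74%, 21.5% and 21.4%. That region was the only one of the 14 called in all 4 lists.

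Fiber peaks without an epithelial counterpart lay inside the gene, about 19 kb downstream of the curated start site. Embryonic fibers had a peak of 536 bp at chr3:146596166-146596701 with its summit at +19.0 kb, at 16.2% of the list (fold enrichment 13.0). A second embryonic fiber peak, of 120 bp, lay at chr3:146597005-146597124 with its summit at +18.5 kb, at 40.2%. Newborn fibers had 1 peak there, chr3:146595485-146595673, with its summit at +20.1 kb, at 34.7% (fold enrichment 4.63). The fiber peaks of both stages stood side by side and did not overlap, with 492 bp between the nearest edges. Neither epithelium list had a peak in this stretch.

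Annotated starts of both genes meet there. The summit of the strongest embryonic fiber peak lies 118 bp downstream of the start of a predicted Dnase2b transcript at 146596693 and 1086 and 1953 bp downstream of others at 146597661 and 146598528. When predicted transcripts were counted, Dnase2b had a promoter peak in embryonic fibers at 16.2% and in newborn fibers at 34.7%, and none in either epithelium. The start site of Uox, the urate oxidase gene on the opposite strand, lies 574 bp from the same summit and 82 bp from that of the second peak, so these peaks are also promoter peaks of Uox, and the genes cannot be told apart by position. The bases are shown because they hold the fiber peaks nearest to a Dnase2b start. They are read on the strand of Dnase2b in GRCm38, at chr3:146596508-146596674, chr3:146595421-146595620 and chr3:146596967-146597148, and capitals mark searched motif words, a Tead word in the first and a Maf word in the third.
Dnase2b +19.0 kb: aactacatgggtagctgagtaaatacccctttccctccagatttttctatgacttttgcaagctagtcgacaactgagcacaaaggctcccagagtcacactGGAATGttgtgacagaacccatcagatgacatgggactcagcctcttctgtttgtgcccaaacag
Dnase2b +20.1 kb: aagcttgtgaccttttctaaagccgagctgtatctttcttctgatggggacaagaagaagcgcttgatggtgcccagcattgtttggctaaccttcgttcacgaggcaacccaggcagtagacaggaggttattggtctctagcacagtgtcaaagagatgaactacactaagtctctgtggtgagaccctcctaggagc
Dnase2b +18.5 kb: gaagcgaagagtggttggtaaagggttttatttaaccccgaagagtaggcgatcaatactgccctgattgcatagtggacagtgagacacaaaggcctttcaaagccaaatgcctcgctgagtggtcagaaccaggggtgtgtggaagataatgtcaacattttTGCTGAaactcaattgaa

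Of the 8 regions near Dnase2b that embryonic fibers alone called, the 2 with a q value under 0.001 were those at +19.0 and +18.5 kb. An intronic region at +31.6 kb was called in embryonic epithelium at 40.6% and in embryonic fibers at 64.1%. A region at -33.3 kb was called in the same lists at 33.9% and 29.6%. Peaks covered 0.273% of the gene body in embryonic epithelium, 2.38% in embryonic fibers, 0% in newborn epithelium and 0.399% in newborn fibers, below the median of all genes in every list. With equal numbers of peaks embryonic fibers covered 1.39%.

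Bnip3, a mitophagy receptor gene that is known as a target of hypoxia signaling, had a promoter peak in all 4 lists. It lies on the reverse strand at chr7:138890836-138909506, with its start site at 138909506. The promoter peak stood at 5.23% in embryonic epithelium, 5.60% in embryonic fibers, 11.8% in newborn epithelium and 5.69% in newborn fibers. The fold enrichments were 42.6, 41.5, 17.0 and 11.1. The summits lay between -129 and 6 bp from the start site. A weaker best peak was found in 63.1%, 53.2%, 52.6% and 69.7% of the genes with a promoter peak, so that Bnip3 was above the median promoter in every list. The fiber minus epithelium difference was 0.367 points in the embryo, with epithelium placed slightly higher, and -6.07 points in the newborn, with fibers placed higher. At equal numbers of peaks the differences were 2.89 and -5.64 points, and at a q value under 0.001 they were 1.0 and -1.91 points.

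A region in the Bnip3 gene at +2.3 kb, chr7:138906847-138907448, held the strongest peak of the window outside any curated promoter in each list. It stood at 11.9% in embryonic epithelium, 8.20% in embryonic fibers, 21.5% in newborn epithelium and 15.7% in newborn fibers. At each stage the fiber peak was placed higher than the epithelial one. A region 10.2 kb upstream, chr7:138919231-138919983, was also called in all 4 lists, at 30.5%, 22.8%, 36.4% and 69.2%. A region at +3.4 kb, chr7:138905966-138906154, was called only in embryonic fibers, at 80.6%. Beyond these, the window held the shared promoter of Mapk1ip1 and Ppp2r2d, at 5.96%, 4.70%, 10.4% and 11.4%, and that of Jakmip3, at 87.9%, 28.4%, 86.7% and 69.2%.

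The Bnip3 sequences below are those at the start site, at both regions away from promoters that all 4 lists called, and at the region inside the gene with a heat shock word, which only embryonic fibers had. They are on the strand of the gene in GRCm38, at chr7:138909507-138909604, chr7:138907084-138907283, chr7:138905999-138906198 and chr7:138919567-138919766, and the stretch at the start site stops at the base before the transcript. Capitals mark a hypoxia word and a Maf word at +2.3 kb, a Maf word and a heat shock pair at +3.4 kb, and a heat shock pair at -10.2 kb.
Bnip3 start site: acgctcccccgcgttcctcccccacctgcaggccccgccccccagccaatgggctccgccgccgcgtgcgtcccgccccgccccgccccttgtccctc
Bnip3 +2.3 kb: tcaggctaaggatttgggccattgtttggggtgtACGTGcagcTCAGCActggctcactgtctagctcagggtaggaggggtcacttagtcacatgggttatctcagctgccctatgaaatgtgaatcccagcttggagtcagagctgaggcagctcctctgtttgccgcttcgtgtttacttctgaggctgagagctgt
Bnip3 +3.4 kb: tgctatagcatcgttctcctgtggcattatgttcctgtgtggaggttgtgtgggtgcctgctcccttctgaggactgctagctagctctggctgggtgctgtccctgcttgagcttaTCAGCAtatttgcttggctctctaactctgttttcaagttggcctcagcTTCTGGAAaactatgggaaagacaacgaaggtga
Bnip3 -10.2 kb: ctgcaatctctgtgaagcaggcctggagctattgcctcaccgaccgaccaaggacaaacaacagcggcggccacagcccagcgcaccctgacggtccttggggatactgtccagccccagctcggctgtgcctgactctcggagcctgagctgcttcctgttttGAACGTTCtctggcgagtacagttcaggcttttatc

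Bnip3l, the receptor gene known for mitochondrial removal in red cells and lens fibers, had the strongest promoter of the 4 genes. It lies on the reverse strand at chr14:66985238-67008877, with its start site at 67008877. Its promoter peak stood at 0.523% in embryonic epithelium, 0.659% in embryonic fibers, 2.95% in newborn epithelium and 0.621% in newborn fibers, and the fold enrichments were 97.4, 101, 29.7 and 20.9. Between 86.3% and 96.9% of the genes with a promoter peak had a weaker one. The summits lay between -146 and -46 bp from the start site. The fiber minus epithelium difference was 0.136 points in the embryo and -2.33 points in the newborn, where fibers were placed higher. The median place of all genes also moved toward fibers in the newborn, from 12.8% in epithelium to 10.3% in fibers. For Bnip3l, equal numbers of peaks gave 0.893%, 1.39%, 2.95% and 0.667%.

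**Figure D3:**
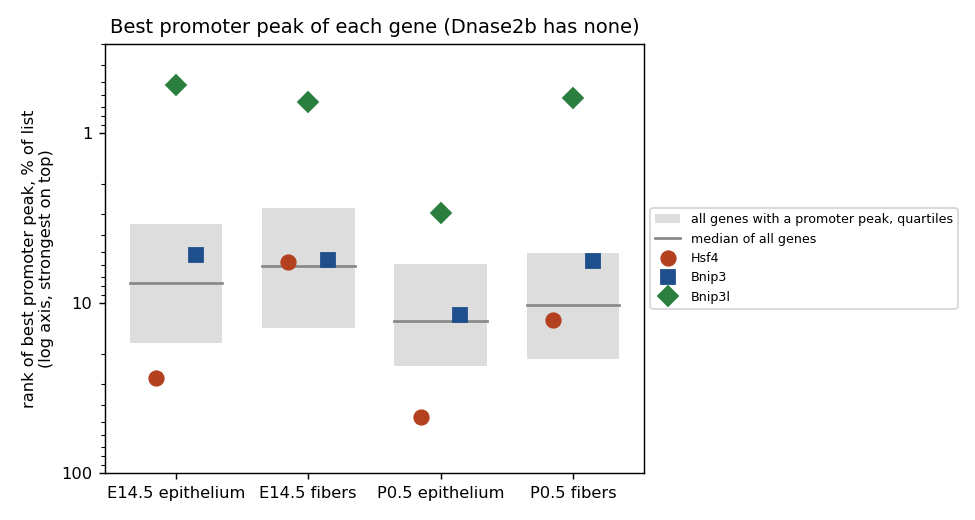
Place of the best promoter peak of Hsf4, Bnip3 and Bnip3l in each list, as a percent of the list (log axis, strongest on top), beside the quartiles (gray boxes) and medians (gray lines) of all genes with a promoter peak. Bnip3l lies above the boxes in all 4 lists, Bnip3 lies inside them, and Hsf4 lies inside them only in fibers.

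Among the 4 genes, Bnip3l had the largest gap between stages in the share of merged regions called. Of its 31 merged regions, 3 of them at the promoter, 29 (93.5%) were called in the embryo and 5 (16.1%) in the newborn. Of all merged regions, 82.4% and 46.4% were. The window held 12 peaks in embryonic epithelium, 27 in embryonic fibers, 3 in newborn epithelium and 5 in newborn fibers. Only embryonic fibers had 18 of the regions, and 14 of these had a q value under 0.001. They stood between 22.8% and 90.1% of the list, the strongest in an intron at +15.1 kb. Peaks covered 7.86% of the gene body in embryonic epithelium, 22.2% in embryonic fibers, 4.24% in newborn epithelium and 3.32% in newborn fibers. When equal numbers of peaks were taken, embryonic epithelium covered 5.90% and embryonic fibers 13.2%, and without the first 2 kb of the gene the shares were 4.90%, 17.9%, 1.83% and 0.961%.

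Away from the promoter, an intronic region of Bnip3l at +18.1 kb, chr14:66990345-66990920, was called in all 4 lists. It stood at 9.59% in embryonic epithelium, 11.2% in embryonic fibers, 23.6% in newborn epithelium and 48.9% in newborn fibers, and the fold enrichments were 25.7, 19.3, 10.2 and 4.17. Its sequence and that at the start site are shown on the strand of the gene in GRCm38, at chr14:67008878-67009022 for the start site and chr14:66990663-66990862 for the intron. The start site holds no searched word, and the intronic region holds 2 Maf words, in capitals.
Bnip3l start site: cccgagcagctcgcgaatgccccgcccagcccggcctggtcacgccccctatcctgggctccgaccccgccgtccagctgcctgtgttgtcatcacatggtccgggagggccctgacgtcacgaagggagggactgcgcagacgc
Bnip3l +18.1 kb: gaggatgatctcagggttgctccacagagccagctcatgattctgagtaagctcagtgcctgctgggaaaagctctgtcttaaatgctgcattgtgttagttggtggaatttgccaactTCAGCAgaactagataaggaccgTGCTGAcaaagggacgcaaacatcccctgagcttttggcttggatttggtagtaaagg

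Sorted by the lists that called them, 23 of the 101 regions (22.8%) were in all 4 lists, against 10.9% of all merged regions. The share was 14 of 45 at Hsf4, 1 of 14 at Dnase2b, 5 of 11 at Bnip3 and 3 of 31 at Bnip3l. Embryonic fibers alone called 41 regions (40.6%), against 29.3% of all merged regions, of which 10 lay at Hsf4, 8 at Dnase2b, 5 at Bnip3 and 18 at Bnip3l. In total 53 regions (52.5%, against 44.4% of all) were called in at least 1 fiber list and no epithelium list, and 9 (8.91%, against 19.8%) in the reverse. With equal numbers of peaks from each list, 56 regions remained. Of these, 12 (21.4%, against 12.5% of all merged regions at this setting) were in embryonic fibers alone, 22 (39.3%, against 37.5%) in fibers and not epithelium, and 4 (7.14%, against 23.6%) in the reverse.

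**Figure D4:**
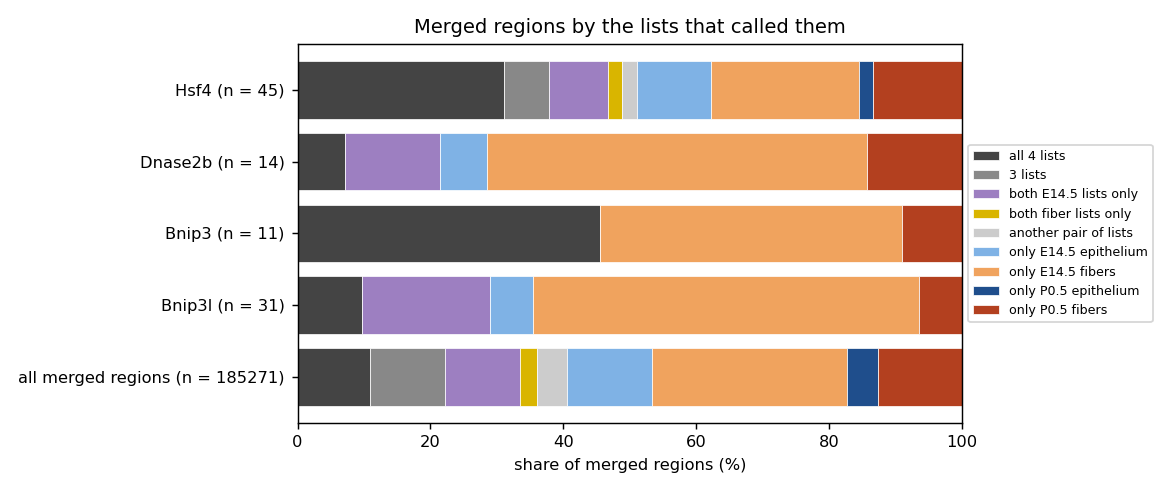
Share of the merged regions of each gene, and of all 185271 merged regions, by the lists that called them (stacked bars, percent, with the number of regions beside each name). The part called in embryonic fibers alone is widest at Dnase2b and Bnip3l, and the part called in all 4 lists is widest at Bnip3 and Hsf4.

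The gene body of all 4 genes was covered more in fibers than in epithelium in the embryo, where 66.6% of genes were. The differences were 41.4 points for Hsf4, 2.1 for Dnase2b, 7.35 for Bnip3 and 14.3 for Bnip3l, and the median of all genes was 0.755. Without its first 2 kb, Bnip3 was covered at 1.86% in embryonic epithelium and 4.74% in embryonic fibers. The bodies of the 4 epithelial marker genes also had a higher median coverage in embryonic fibers, 44.1% against 27.6% in embryonic epithelium, and those of the 6 fiber marker genes had 86.5% against 6.21%. At the newborn stage, 2 of the 4 genes, Hsf4 and Dnase2b, were covered more in fibers, against 35.8% of genes. Bnip3 was covered at 2.82% in epithelium and 2.37% in fibers, and Bnip3l at 4.24% and 3.32%. The newborn value of Dnase2b rested on 1 peak of 189 bp.

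**Figure D5:**
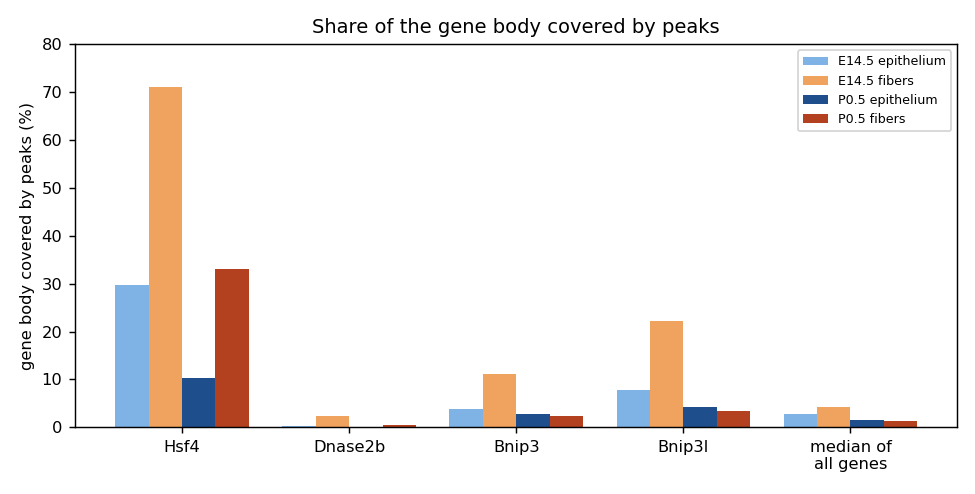
Percent of each gene body that lies under peaks in each list, for the 4 genes and for the median of all genes, as bars of 1 pooled value each with no error. The embryonic fiber bar is the highest for each gene, and in the newborn the fiber bar is clearly above the epithelial one only for Hsf4.

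Motif words were counted on both strands in the 200 bp at the strongest summit of each merged region. A word is a match of letters and no measurement of binding, and no match says only that these letters are not in this window. The heat shock pair GAANNTTC or TTCNNGAA, with a pair of the inverted units that heat shock factors bind, was in 11 of the 101 regions (10.9%, 95% Wilson interval 6.19 to 18.5), against 8.0% of all merged regions. It was in 5 of 45 regions at Hsf4, 0 of 14 at Dnase2b, 4 of 11 at Bnip3 and 2 of 31 at Bnip3l. The interval at Bnip3, 15.2 to 64.6%, lay above the share of all regions, but in the 100 bp at the summit the pair was in 0 of the 11 Bnip3 regions and in 4 of the 45 at Hsf4. In whole regions it was in 6 of the 11 at Bnip3, 12 of the 45 at Hsf4, 2 of the 14 at Dnase2b and 3 of the 31 at Bnip3l, against 15.2% of all. The promoter windows of Hsf4, Bnip3 and Bnip3l held no pair. Of the 11, 6 were called in embryonic fibers alone, as were 41 of the 101 regions (40.6%). Another 2 were in all 4 lists, as were 23 of the 101 (22.8%). Both lay near Bnip3, at -10.2 kb and at the Jakmip3 promoter. The longer word of 3 units, a pair followed after 2 bases by another unit, was in 0 of the 101 windows (95% Wilson interval 0 to 3.66%), against 0.295% of all merged regions. In the whole merged regions it occurred once, at chr8:105298879-105298891, 29.1 kb downstream of the Hsf4 start site and 1239 bp from the summit of the E2f4 promoter region, which made 0.990% of the 101 regions against 0.657% of all.

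For the other words, as for the pair, the share of all regions lay inside the interval over all 101 regions of the 4 genes. The Maf word TGCTGA or TCAGCA was in 21 regions (20.8%, 14 to 29.7) against 23.1% of all merged regions. The AP-1 word TGANTCA was in 3 (2.97%, 1.02 to 8.37) against 6.61%, and the Tead word GGAATG or CATTCC in 13 (12.9%, 7.68 to 20.8) against 13.7%. The hypoxia word ACGTG or CACGT, a form of the core of the hypoxia response element, was in 15 (14.9%, 9.21 to 23.1) against 12.8%. At Bnip3 it lay at +2.3 kb and in the searched 200 bp of no other region. The other form of the core, GCGTG, was not searched, and the Bnip3 start site sequence above holds it. Different words shared bases in 1 region, +33.8 kb from Hsf4, where an AP-1 word overlapped a Maf and a Tead word. The intervals cover counting error alone, and regions of 1 gene are not independent samples.

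A list of 26 other genes of the same processes gives the setting. Promoter peaks were found for 24 of them in each embryonic list and for 22 in each newborn list. Over all genes the shares were the 70.3%, 71.2%, 67.0% and 64.6% given above. All 9 mitophagy receptors and adaptors, among them Fundc1, Bcl2l13, Optn and Pink1, had one in every list, with medians of 4.15% in embryonic epithelium, 3.46% in embryonic fibers, 7.95% in newborn epithelium and 6.31% in newborn fibers. In the embryonic lists they ranged from 2.05% to 6.19% in epithelium and from 0.533% to 6.29% in fibers, so that Bnip3 lay within both ranges and Bnip3l was placed higher than all 9 in epithelium and within the range in fibers. In the newborn lists the weakest of the 9 stood at 11.8% in epithelium and 11.4% in fibers, and Bnip3l was placed higher than all 9 in both.

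Among the nucleases, Dnase2a, the acid nuclease of other tissues, had a promoter peak in all 4 lists, at 9.59%, 21.4%, 15.8% and 21.4%, unlike Dnase2b. Dffb, the nuclease of apoptotic cells, stood at 5.80%, 3.31%, 13.3% and 4.22%, and Trex1 at 15.2%, 9.99%, 31.6% and 14%. Dnase1 had a promoter peak in embryonic fibers alone, at 36.0%. Of the 8 nucleases, 7, 8, 6 and 6 had a promoter peak in the 4 lists, beside 70.3%, 71.2%, 67.0% and 64.6% of all genes.

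The heat shock factors Hsf1 and Hsf2 had stronger promoters than Hsf4 in every list, Hsf1 at 1.36%, 1.58%, 7.24% and 2.09% and Hsf2 at 0.434%, 0.882%, 0.215% and 0.557%. Hsf3 had none, and Hsf5 had one in embryonic epithelium at 87.9% and in newborn fibers at 26.4%. Their gene bodies were covered less than that of Hsf4, at most 8.34% for Hsf1 and 9.16% for Hsf2, both in embryonic fibers. Cryab, a small heat shock protein and lens crystallin, had a promoter peak at 7.05%, 13.8%, 10.4% and 18.2%, and the small heat shock protein gene Hspb1 at 50.8%, 53.3% and 75.7% with none in newborn fibers. The phospholipase gene Plaat3, known for organelle breakdown in the lens, stood at 13.8%, 9.99%, 13.9% and 15.7%, its relative Plaat1 at 20.9%, 25.2%, 22.5% and 21.4%, and the autophagy adaptor gene Fyco1 at 2.49%, 2.12%, 6.64% and 6.31%. Over the 26 genes, 19 had a gene body covered more in fibers than in epithelium in the embryo and 6 less, and in the newborn both numbers were 11, beside the 66.6% and 35.8% of all genes that were covered more in fibers.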

How the data were processed

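ATAC-seq was run on 8 libraries, 2 for each of 4 groups. Per the submitters' processing notes and the study's methods, the authors used Trim Galore 0.4.1, Bowtie2 2.3.3.1 (mm10), SAMtools 1.2, Picard 2.1.1 and MACS2 2.1, removed mitochondrial and duplicated reads, and called peaks at q 0.05 on both libraries pooled. The deposited fold enrichment is the ratio of reads at a summit to the MACS2 background, the deposited −log10 p and q values are MACS2's, and the deposited score, made from q, was not used. No control library is named. Lists were assigned by the stage and tissue in their names.

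Peaks were ranked within lists by fold enrichment and merged at 10 bp. Promoters lay within 2 kb of the start sites of 45756 curated RefSeq GRCm38 transcripts, gene bodies of at least 1 kb entered the coverage, and an overlap was 1 bp or more. Sequences are RefSeq GRCm38, outside UTRs. Python 3.11.15, pandas 2.3.3, numpy 2.4.6, pysam 0.24.0, statsmodels 0.14.6 and matplotlib 3.10.9 were used. On simulated data, 100% of 2000 merged regions and 100% of 500 coverage windows came out right. Named were the 4 genes, the listed pathway genes and neighbors under a named peak. Members and lists were chosen with earlier results of these data known. The alternatives were other windows, q values, equal numbers of peaks, promoter widths, transcripts, rankings, merge distances and motif windows. Depth and replicate values were not analysed here, so no test between groups was made.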

Additional observations from a re-analysis of the deposited data

Results flagged for a closer look

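The best promoter peaks of Bnip3 and Bnip3l differed between tissues in opposite directions at the 2 stages. The fiber minus epithelium difference, in percent of the list, was 0.367 for Bnip3 in the embryonic lens (E14.5) and -6.07 in the newborn lens (P0.5). For Bnip3l the values were 0.136 and -2.33. At a q value under 0.001 they were 1.0 and -1.91 for Bnip3 and 0.223 and -2.13 for Bnip3l, and with equal numbers of peaks 2.89 and -5.64 for Bnip3 and 0.498 and -2.28 for Bnip3l. A negative value is a higher place in fibers. Over all genes with a promoter peak, the median place was 7.68% in embryonic epithelium and 6.10% in embryonic fibers. In the newborn it was 12.8% in epithelium and 10.3% in fibers, so the typical promoter was also placed higher in fibers. Each of the Bnip3 and Bnip3l differences rests on 1 pooled value per group, and the difference between the stages was not tested.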

How the results depend on the processing

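No paired analysis was possible because each list pools the 2 libraries of its group, and for the same reason no replicate could be left out. With a flank of 20 kb the 4 genes held 28, 49, 23 and 30 peaks in embryonic epithelium, embryonic fibers, newborn epithelium and newborn fibers, and with 100 kb embryonic epithelium held 88. With equal numbers of 58592 peaks, embryonic epithelium held 31, embryonic fibers 42, newborn epithelium 35 and newborn fibers 47, and the merged regions numbered 56, with 22 (39.3%, against 37.5% of all regions at this setting) in fibers and not epithelium, 4 (7.14%, against 23.6%) in the reverse and 12 (21.4%, against 12.5%) in embryonic fibers alone. At a q value under 0.001, newborn fibers held 30 peaks, 33 of 75 regions were in fibers and not epithelium (44%, against 35.1% of all), and 0 in both fiber lists alone (against 1.08%). The heat shock pair was in 4 regions in the 100 bp at the summit (3.96%, against 3.65% of all regions) and in 23 whole regions (22.8%, against 15.2%), and the word of 3 units in 1 whole region (0.990%, against 0.657%). Fewer peaks or fewer bases were searched in each of these except the wider flank and the whole regions. Among the other values that answer a comparison, 71 stayed within 1.5 times, and of the values for single genes or words 88 stayed and 52 moved, where a place or a coverage counted as moved once it left the 95% Wilson interval of the reported percent, taken over the peaks of the list or the bases of the gene, which can be a small change. Counting predicted transcripts gave Dnase2b a promoter peak in both fiber lists. Ranking by p value left each of the places of the best promoter peaks as it was. This was no separate check, because at the 4 genes each fold enrichment of a list went with 1 p value. These unchanged places are among the values counted as having stayed. Depth was not analysed here, and its part in the differences between lists was not tested.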
